A study of Homo sapiens with 6 samples.

Results

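The genes described here are 47 genes that act at the start and in the course of S phase: the factors that license replication origins, the helicase and its activators, the sliding clamp and its loader, the replicative polymerases, the enzymes that supply nucleotides, the chaperones that rebuild chromatin, and the cyclins, kinase and E2F factors of the G1/S transition. They were chosen by name for these roles, with earlier results of these data known. All 47 were found among the 23524 genes of the expression table. The table comes from Hep G2, a human liver cancer cell line, in a study of EFTUD2, a GTPase of the U5 part of the spliceosome, and of how cells of liver cancers proliferate. Cells transduced with empty lentivirus were the control group (3 libraries), and cells transduced with lentivirus carrying EFTUD2 were the EFTUD2 group (3 libraries). Both were kept as stable lines, and the sources used here do not say how many separate transductions each group holds. The libraries were made from poly-A RNA and sequenced on the BGISEQ-500 platform.

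A cell copies its DNA once per cycle. In G1 phase, ORC, CDC6 and CDT1 load the MCM2-7 helicase onto origins. Cyclin E with CDK2 and the E2F transcription factors then switch on S phase, in which CDC45 and GINS activate the helicase, PCNA holds the polymerases on the template, and FEN1 and LIG1 join the lagging strand. Many of these genes share E2F target sites in their promoters, are transcribed together around the G1/S border, and are widely read as a signature of how large a share of a population is proliferating. In liver, mature hepatocytes rarely divide and keep these genes low, and liver tumors and their cell lines express them.

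Promoter sequence was examined first, as a feature that played no part in choosing the genes. The promoter table of RefSeq (GRCh38.p14) gives the 250 bases before each gene's start and the 50 after it, and 39 of the 47 genes matched it by symbol. A gene with several starts was counted once, as holding a motif where any of its windows did. CCNE2, CDK2, RPA2, E2F8, CCND1, GINS4, MCM5 and MCM4 were not matched. An E2F motif was counted as TTTCCCGC, TTTCGCGC, TTTGCCGC or TTTGGCGC on either strand. It was present for 22 of the 39 genes (56.4%), compared with 6.46% of the 11092 tested genes that matched the table and 3.99% of all 27305 genes in it. A CCAAT box (CCAAT on either strand) was present for 23 of the 39 genes (59.0%), compared with 43.0% of the tested genes and 39.7% of all 27305 genes. The CHR element of G2 and mitotic genes, counted as TTTGAA on either strand, was found for 1 of the 39 genes, RRM1, compared with 14.0% of the tested genes. A match is a run of letters and not a shown binding site.

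The stretches that follow lie upstream of the start of the named gene, are written 5′ to 3′ on the gene's own strand, and carry the E2F motifs in capitals. They are shown for helicase subunits, the clamp and a nucleotide enzyme, which shared 1 pattern over the libraries, and for E2F1 and CDT1, which did not follow it. In MCM6, each of the 2 capital runs holds TTTGGCGC on one strand overlapping TTTCGCGC on the other. RRM1, whose window held no E2F motif, is shown beside them for its first 80 upstream bases, with no capitals.
MCM3, chr6:52284869-52284956, minus strand: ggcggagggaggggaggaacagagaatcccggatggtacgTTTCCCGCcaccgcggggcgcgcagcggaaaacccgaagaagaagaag
MCM6, chr2:135876482-135876635, minus strand: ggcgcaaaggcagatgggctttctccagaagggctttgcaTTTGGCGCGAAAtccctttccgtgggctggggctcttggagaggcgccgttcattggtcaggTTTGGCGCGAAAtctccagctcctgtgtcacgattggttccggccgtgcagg
MCM7, chr7:100101398-100101446, minus strand: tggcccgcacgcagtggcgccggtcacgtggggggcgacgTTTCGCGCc
PCNA, chr20:5126634-5126721, minus strand: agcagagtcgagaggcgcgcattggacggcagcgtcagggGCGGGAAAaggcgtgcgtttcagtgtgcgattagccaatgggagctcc
TYMS, chr18:657574-657652, plus strand: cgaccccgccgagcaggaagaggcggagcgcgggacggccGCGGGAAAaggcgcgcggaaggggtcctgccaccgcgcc
E2F1, chr20:33686386-33686458, minus strand: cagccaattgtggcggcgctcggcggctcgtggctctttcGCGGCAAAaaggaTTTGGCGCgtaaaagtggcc
CDT1, chr16:88803714-88803788, plus strand: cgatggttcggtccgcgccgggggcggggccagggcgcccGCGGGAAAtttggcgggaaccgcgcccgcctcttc
RRM1, chr11:4094605-4094684, plus strand: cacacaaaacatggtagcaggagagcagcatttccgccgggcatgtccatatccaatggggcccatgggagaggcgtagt

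Expression was deposited as FPKM, a fragment count divided by transcript length and by library size, so the number of reads behind a value is unknown. EFTUD2 itself measured 41.1, 54.4 and 46.3 FPKM in controls 1 to 3 against 106.6, 102.9 and 109.5 FPKM in EFTUD2 cells. Each EFTUD2 library thus lay above each control. The table does not separate vector transcripts from those of the cells' own gene. The libraries did not differ equally. EFTUD2 replicate 3 held the lowest of the 6 values for 45.7% of the 17222 genes tested and the highest for 20.5%. Of 10 hepatocyte markers, all were detected in every library, with albumin between 1773 and 4732 FPKM. The labels do not say whether replicates were separate cultures, so the spread between them may be technical.

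No difference between the groups was detected for any of the 47 genes. The groups were compared with limma on log2(FPKM + 1), with Benjamini-Hochberg adjustment over the 17222 genes whose mean reached 0.1 FPKM, and all 47 genes were among them. At an adjusted p under 0.05, 0 of the 47 were called, as were 0.0% of all genes tested, and the adjusted p of the 47 lay between 0.43 and 0.99. EFTUD2 itself, with a log2 fold change of 1.16, was not called either (adjusted p = 0.13 in limma). The comparison thus did not call the gene that the lentivirus carried, and the lack of calls does not show equal levels. At an unadjusted p under 0.05, 0 of the 47 were higher and 0 were lower in the EFTUD2 group, compared with 4.40% and 7.90% of all genes. The 3 EFTUD2 libraries all lay above the 3 controls for 1 of the 47 genes, CDT1, and below them for 0, compared with 7.92% and 19.4% of all genes. The median log2 fold change of the 47 genes was -0.11, beside -0.07 for all genes. The median 95% interval reached 0.60 to either side of a gene's log2 fold change, and the intervals of single genes ran from narrower ones, such as -0.30 to 0.16 for E2F1, to wider ones, such as -1.52 to 0.52 for GINS3 (intervals not adjusted for the number of genes). In bulk RNA, fewer cells in S phase and less RNA per cell cannot be told apart.

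The 47 genes had a similar order over the 6 libraries. EFTUD2 replicate 3 held the lowest value for 43 of the 47 genes (91.5%), compared with 45.7% of all genes, and the highest for 1, CDT1, compared with 20.5% of all genes. The 4 genes whose lowest value was elsewhere were CDT1, RFC4, CDK2 and CCND1. In the control group, replicate 1 was lowest, replicate 3 intermediate and replicate 2 highest for 42 of the 47 genes (89.4%), compared with 23.1% of all genes. ORC6, CDT1, POLD1, CCNE2 and E2F1 had another control order. Both features held together for 39 of the 47 genes, compared with 15.5% of all genes. The count of 43 depended on the scaling. It was 30 (63.8%) under median-of-ratios scaling and 32 (68.1%) after quantile normalization, compared with 33.2% and 33.1% of all genes (scalings chosen for this count after the data were seen). The number of the 47 genes lowest in control replicate 1 was then 15 and 13, compared with 3 for the deposited values. EFTUD2 replicate 3 stayed below both other EFTUD2 libraries for 43 and 44 of the 47 genes under these scalings, compared with 46.6% and 44.9% of all genes, and the control order held for 42 under each. Counts by role and the order of single genes are given below for the deposited values. The genes respond together within a cell cycle, so they are not 47 separate observations of a library.

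**Figure D1:**
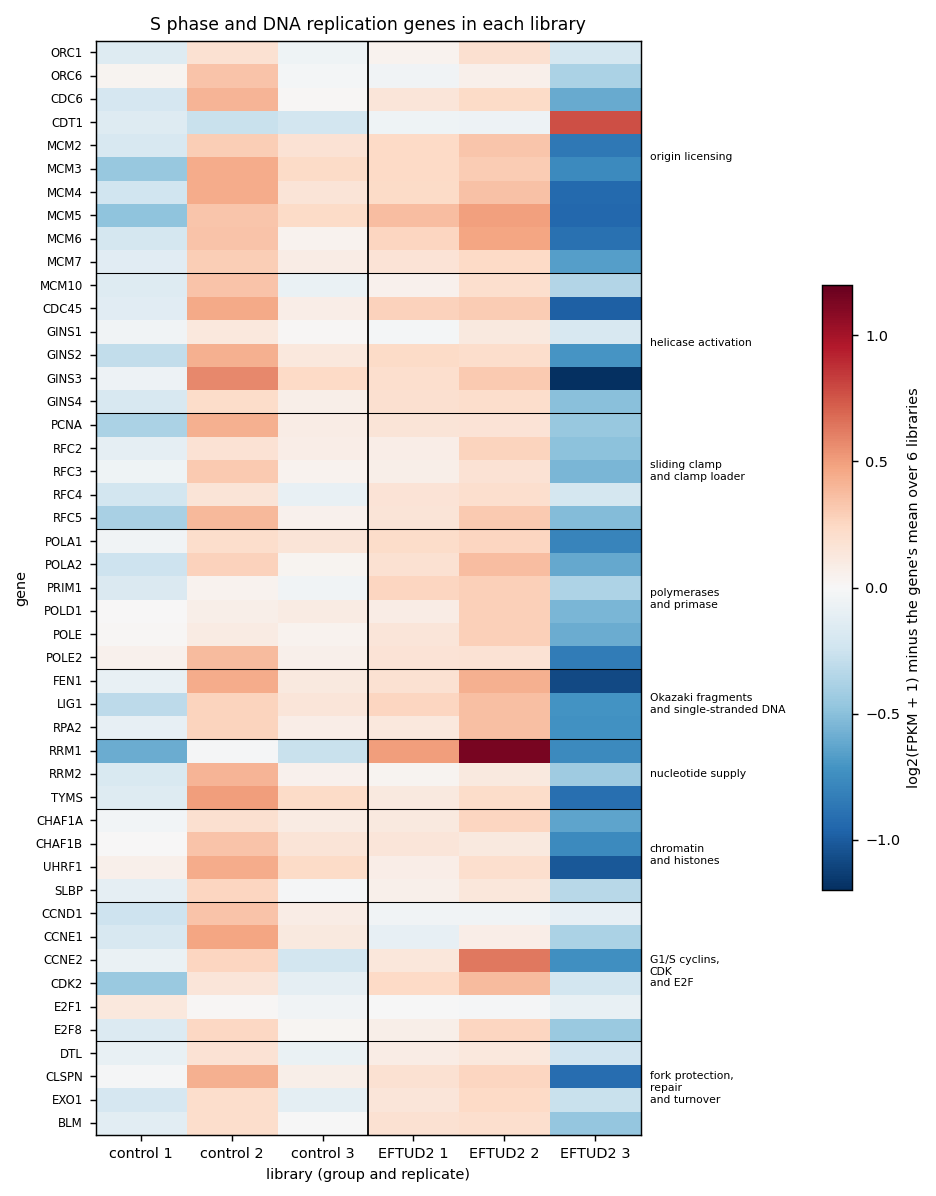
Heat map of the 47 genes (rows, grouped by role) in the 6 libraries (columns, 3 control and 3 EFTUD2). Color gives log2(FPKM + 1) minus the gene's mean over the 6 libraries, red above and blue below that mean. The EFTUD2 replicate 3 column is blue in nearly every row, with CDT1 as the red exception, and the control 2 column is red in nearly every row.

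The size of these library differences exceeded that of the group difference. The median gene of the 47 had a ratio of EFTUD2 replicate 3 to the mean of EFTUD2 replicates 1 and 2 of 0.546, with a range from 0.260 for CCNE2 to 1.80 for CDT1. For all genes with no value of 0 the median ratio was 0.857. After scaling by the median of ratios these values were 0.624 and 0.980. Control replicate 2 stood at 1.41 times control replicate 1 for the median gene of the 47, and at 0.973 times for the median of all genes. The EFTUD2 mean stood at 0.939 times the control mean for the median gene of the 47, and at 0.926 times for the median of all genes. The difference of each library from the gene's own mean had a median over the 47 genes of -0.15, 0.29 and 0.06 in controls 1 to 3 and of 0.15, 0.24 and -0.59 in EFTUD2 replicates 1 to 3, on the log2 scale. EFTUD2 replicates 1 and 2 were therefore on the side of the higher controls and replicate 3 was below all controls.

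**Figure D2:**
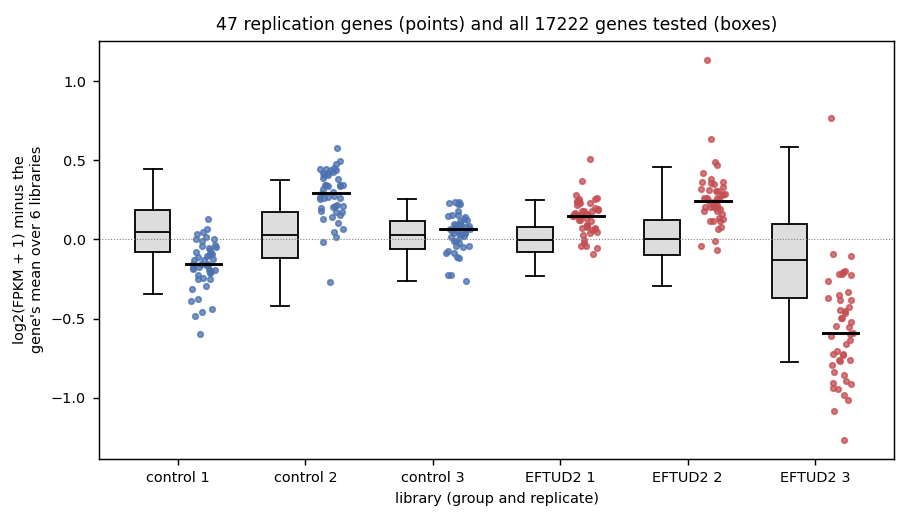
Difference of log2(FPKM + 1) from each gene's mean over the 6 libraries, by library. Points are the 47 genes with a black line at their median, and boxes show the median, quartiles and the 5th to 95th percentile of all 17222 genes tested. The black line moves from -0.15 in control 1 to 0.29 in control 2, and lies at -0.59 in EFTUD2 replicate 3, where the median of all genes is -0.13.

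The origin licensing genes number 10. ORC1 and ORC6 mark the origin, CDC6 and CDT1 load the helicase, and MCM2 to MCM7 form its ring. MCM3 measured 56.8, 106.7 and 92.3 FPKM in controls 1 to 3 against 92.7, 97.1 and 45.7 FPKM in EFTUD2 cells, in the order of replicates 1 to 3 as for every gene below. MCM7, the other abundant subunit, measured 68.1, 92.1 and 79.6 FPKM in controls 1 to 3 against 83.7, 88.5 and 46.98 FPKM in EFTUD2 cells. In both genes, EFTUD2 replicates 1 and 2 fell within the range of the controls and replicate 3 below it. MCM2 measured 27.0, 38.1 and 35.1 FPKM in controls 1 to 3 against 36.7, 39.2 and 16.6 FPKM in EFTUD2 cells. MCM4 measured 26.3, 42.9 and 34.9 FPKM against 36.8, 40.2 and 15.9 FPKM. MCM4 followed the same order as MCM3 and MCM7, and in MCM2 EFTUD2 replicate 2 was slightly above the highest control. MCM5 measured 25.2, 45.3 and 42.1 FPKM in controls 1 to 3 against 46.3, 50.5 and 18.1 FPKM in EFTUD2 cells. MCM6, the least abundant subunit per length, measured 10.04, 15.3 and 12.2 FPKM against 14.3, 16.7 and 5.88 FPKM. For MCM5, both EFTUD2 replicates 1 and 2 were above all controls, and for MCM6 only replicate 2 was. The log2 fold changes of the 6 subunits lay between -0.24 (MCM4) and -0.06 (MCM5), with adjusted p from 0.75 to 0.95 in limma.

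The 6 subunits kept similar proportions while their sum varied. Their summed level was 213.4, 340.3 and 296.1 FPKM in controls 1 to 3 (283.3 ± 64.4, SD, n = 3) and 310.4, 332.3 and 149.1 FPKM in EFTUD2 replicates 1 to 3 (264.0 ± 100.1, SD, n = 3). The highest library was thus at 2.28 times the lowest, and these lay in different groups. MCM3 made up between 26.6% and 31.4% of the sum, MCM7 between 26.6% and 31.9%, and MCM6 between 3.94% and 5.04%. The share of MCM5 was lowest in control 1, at 11.8%, and in EFTUD2 replicate 3, at 12.1%, and between 13.3% and 15.2% in the other 4 libraries.

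CDT1 departed from the other licensing factors. This gene, whose protein recruits the helicase in G1 and is degraded once S phase begins, measured 28.9, 26.7 and 27.6 FPKM in controls 1 to 3 against 31.1, 30.9 and 55.9 FPKM in EFTUD2 cells. All EFTUD2 libraries were above all controls, and replicate 3, lowest for most of the other genes, was highest here. The log2 fold change was 0.43 (95% interval -0.11 to 0.98), with an adjusted p of 0.43 in limma and an exact two-sided permutation p of 0.1, the smallest that 3 libraries against 3 can give. Without EFTUD2 replicate 3 the log2 fold change was 0.16. CDC6, its partner in loading, measured 18.2, 28.2 and 21.3 FPKM in controls 1 to 3 against 23.4, 24.8 and 13.5 FPKM in EFTUD2 cells. CDC6 followed the order of the MCM genes.

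The helicase activators MCM10, CDC45 and GINS1 to GINS4 were all lowest in EFTUD2 replicate 3, and all had a log2 fold change below 0, from -0.50 to -0.07. GINS3, a subunit of the 4-part GINS complex, measured 6.42, 10.6 and 8.15 FPKM in controls 1 to 3 against 7.90, 8.67 and 2.23 FPKM in EFTUD2 cells. It had the lowest log2 fold change of the 47 genes, -0.50 (95% interval -1.52 to 0.52, adjusted p = 0.57 in limma). The groups overlapped, and without EFTUD2 replicate 3 the log2 fold change was 0.01. CDC45, which joins MCM and GINS in the active helicase, measured 8.66, 13.5 and 10.2 FPKM in controls 1 to 3 against 11.9, 12.1 and 4.36 FPKM in EFTUD2 cells. GINS1 varied least of the 6, with a highest value 1.27 times its lowest.

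PCNA, the sliding clamp and a common marker of proliferating cells, was the most abundant of the 47 genes per length. Its level was 146.3, 255.6 and 202.3 FPKM in controls 1 to 3 (201.4 ± 54.7, SD, n = 3) and 212.1, 213.4 and 138.8 FPKM in EFTUD2 replicates 1 to 3 (188.1 ± 42.7, SD, n = 3). The EFTUD2 group spanned less than the controls did, and 2 of its 3 libraries fell between controls 3 and 2. The log2 fold change was -0.09 (95% interval -0.69 to 0.52, adjusted p = 0.87 in limma). Of the clamp loader subunits RFC2 to RFC5, RFC4 had a log2 fold change of 0.10 and the other 3 lay between -0.20 and -0.04.

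The polymerase and primase genes POLA1, POLA2, PRIM1, POLD1, POLE and POLE2 were all lowest in EFTUD2 replicate 3, at 0.404 to 0.618 times the mean of replicates 1 and 2. POLE2, the accessory subunit of the leading strand polymerase, measured 4.93, 6.49 and 5.0 FPKM in controls 1 to 3 against 5.44, 5.49 and 2.21 FPKM in EFTUD2 cells (log2 fold change -0.33, adjusted p = 0.59 in limma). PRIM1, the catalytic subunit of primase, measured 10.9, 12.8 and 12.03 FPKM in controls 1 to 3 against 15.0, 15.3 and 9.37 FPKM in EFTUD2 cells. EFTUD2 replicates 1 and 2 were above all controls for PRIM1, and replicate 3 was below all of them (PRIM1 was chosen after its values were seen). Of the lagging strand and single-stranded DNA genes, FEN1, the flap nuclease, measured 25.4, 37.1 and 29.5 FPKM in controls 1 to 3 against 30.8, 36.6 and 12.2 FPKM in EFTUD2 cells. LIG1 and RPA2 had the same lowest library, at 0.458 and 0.484 times the mean of EFTUD2 replicates 1 and 2.

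RRM1 had the highest log2 fold change of the 47 genes. It encodes the large subunit of ribonucleotide reductase, which makes deoxynucleotides. RRM1 measured 20.8, 31.7 and 26.5 FPKM in controls 1 to 3 against 45.9, 71.6 and 18.4 FPKM in EFTUD2 cells. EFTUD2 replicates 1 and 2 lay far above the controls and replicate 3 below all of them, so the groups overlapped (log2 fold change 0.58, 95% interval -0.50 to 1.67, adjusted p = 0.54 in limma, exact two-sided permutation p = 0.4). Without EFTUD2 replicate 3 the log2 fold change was 1.11 with an adjusted p of 0.10 in limma. None of the 47 genes but RRM1 was called under any setting tried. Its adjusted p was 0.039 when limma weighted the libraries by their spread (array weights), an estimation that stopped before converging. With these weights 1 of the 47 genes was called, compared with 1246 of the 17222 genes tested, so the call did not single out RRM1. The weights were 0.95, 1.81 and 27.7 for controls 1 to 3 and 0.035, 2.30 and 0.26 for EFTUD2 replicates 1 to 3. The RRM1 call thus leaned mostly on control 3 and EFTUD2 replicate 2, the library with the highest RRM1 value. RRM2, the small subunit of the same enzyme, measured 44.3, 67.2 and 52.3 FPKM in controls 1 to 3 against 51.5, 54.7 and 37.2 FPKM in EFTUD2 cells, and did not share the high values of replicates 1 and 2. TYMS, thymidylate synthase, measured 61.4, 97.0 and 80.2 FPKM in controls 1 to 3 against 74.5, 79.7 and 35.99 FPKM in EFTUD2 cells (log2 fold change -0.38, adjusted p = 0.57 in limma).

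Some genes listed as markers of other cell types also differed between these libraries. For the sums of the basal epithelium and fibroblast lists EFTUD2 replicate 2 was highest and replicate 1 next, as for RRM1. Each sum rested on 1 or 2 genes, so neither identifies a cell type. The summed level of the 6 genes in the basal epithelium list was between 1.73 and 2.75 FPKM in the controls. It was 91.9, 197.2 and 10.2 FPKM in EFTUD2 replicates 1 to 3, nearly all of it KRT17 and KRT7. KRT5 was at 0 in all libraries, and KRT6A and TP63 were at 0.01 FPKM or less. The summed level of 7 fibroblast markers was between 0.59 and 1.64 FPKM in the controls and 26.1, 64.4 and 5.20 FPKM in the EFTUD2 group, mostly VIM, with COL1A2 at 0 in all libraries and DCN at 0.04 FPKM or less. Above the control mean, RRM1 in EFTUD2 replicate 1 was 0.432 times as far as in replicate 2, KRT17 0.490 times and VIM 0.389 times. In replicate 3, RRM1 differed from its control mean by -7.91 FPKM, whereas KRT17 and VIM were 7.88 and 2.78 FPKM above theirs. The summed macrophage markers (6 genes) had another order, at 0.92, 0.65 and 1.05 FPKM in controls 1 to 3 and 1.52, 2.28 and 2.51 FPKM for EFTUD2, so that the groups did not overlap and replicate 3 was highest. Nearly all of that sum was CD14, and TYROBP was at 0 throughout. The summed endothelial markers (6 genes) were between 1.26 and 1.68 FPKM in the controls and between 1.32 and 1.75 FPKM in the EFTUD2 group. The part of these markers in the values of RRM1 was not tested.

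The chromatin genes are CHAF1A and CHAF1B, which place histones on new DNA, UHRF1, which carries DNA methylation through replication, and SLBP, which binds histone mRNA. UHRF1 measured 23.5, 30.8 and 26.4 FPKM in controls 1 to 3 against 23.7, 26.02 and 10.6 FPKM in EFTUD2 cells (log2 fold change -0.49, 95% interval -1.25 to 0.27, adjusted p = 0.48 in limma). CHAF1B measured 9.65, 12.5 and 10.9 FPKM in controls 1 to 3 against 10.8, 10.6 and 5.27 FPKM in EFTUD2 cells (log2 fold change -0.33, adjusted p = 0.54 in limma). In both genes EFTUD2 replicates 1 and 2 were inside the control range, and the third replicate was below it.

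**Figure D3:**
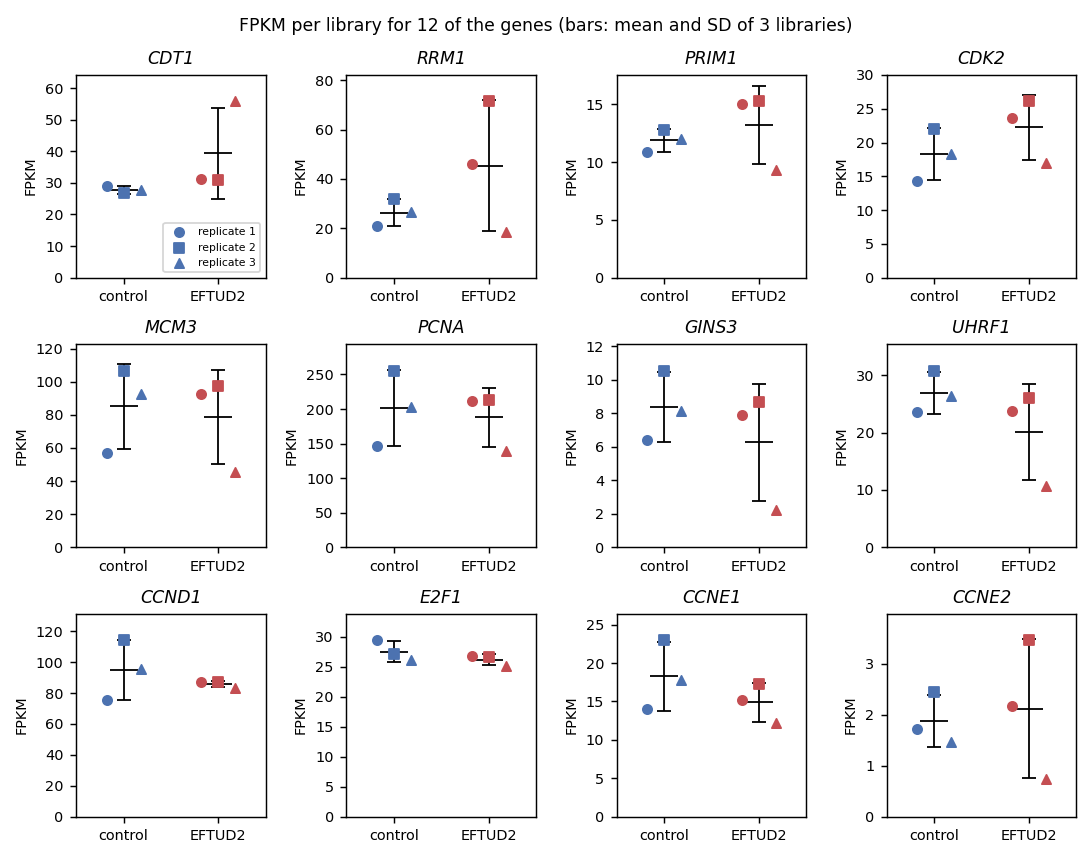
FPKM (vertical axes, each from 0) of 12 of the genes in the control and EFTUD2 groups. Points are single libraries, with the replicate number given by the marker shape, and bars are the mean and SD of 3 libraries. EFTUD2 replicate 3 (red triangle) is lowest in 9 panels and highest for CDT1, and RRM1 reaches 45.9 and 71.6 FPKM in EFTUD2 replicates 1 and 2.

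Of the 6 cyclin, kinase and E2F genes of the G1/S transition, 4 were lowest in EFTUD2 replicate 3. CCND1, cyclin D1, measured 75.4, 114.3 and 95.8 FPKM in controls 1 to 3 against 87.1, 87.3 and 83.6 FPKM in EFTUD2 cells. Its EFTUD2 libraries lay within the range of the controls, and replicate 3 was at 0.959 times the mean of the other two. E2F1 measured 29.5, 27.2 and 26.1 FPKM in controls 1 to 3 against 26.8, 26.6 and 25.2 FPKM in EFTUD2 cells, with a highest value only 1.17 times its lowest. The mRNA of this transcription factor thus varied little between libraries in which the MCM sum varied by 2.28 times. E2F8, a repressor of the same family, measured 2.38, 3.52 and 2.85 FPKM in controls 1 to 3 against 2.99, 3.55 and 1.79 FPKM in EFTUD2 cells.

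CCNE1 and CCNE2 encode the E cyclins that activate CDK2. CCNE1 measured 14.1, 23.0 and 17.8 FPKM in controls 1 to 3 against 15.2, 17.2 and 12.3 FPKM in EFTUD2 cells (log2 fold change -0.27, adjusted p = 0.54 in limma). CCNE2, the least abundant of the 47 genes per length, measured 1.72, 2.44 and 1.46 FPKM against 2.16, 3.46 and 0.73 FPKM. Its EFTUD2 libraries spanned the whole control range, and its log2 fold change was 0.03. CDK2 measured 14.4, 22.0 and 18.3 FPKM in controls 1 to 3 against 23.7, 26.1 and 16.9 FPKM in EFTUD2 cells (log2 fold change 0.27, 95% interval -0.23 to 0.77, adjusted p = 0.54 in limma). EFTUD2 replicates 1 and 2 were above all controls for CDK2, and replicate 3 was between controls 1 and 3. Of the genes for fork protection, repair and turnover, CLSPN, which relays stalled fork signals, measured 3.64, 5.27 and 3.90 FPKM in controls 1 to 3 against 4.32, 4.58 and 1.48 FPKM in EFTUD2 cells. DTL, EXO1 and BLM had log2 fold changes between -0.06 and 0.08.

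Leaving out EFTUD2 replicate 3 turned the direction of most of the 47 genes. With all libraries 8 genes had a log2 fold change above 0 and 39 below, and without that library 39 were above 0 and 8 below. Their median log2 fold change was then 0.13, beside -0.04 for all genes. At an adjusted p under 0.05, 0 of the 47 were called in limma without it, compared with 0.891% of all genes higher and 0.0816% lower. At an unadjusted p under 0.05, 3 were higher (RRM1, PRIM1 and CDK2, or 6.38%), compared with 7.94% of all genes. The 2 remaining EFTUD2 libraries were above the 3 controls for 8 of the 47 (17.0%; CDT1, MCM5, RFC4, POLA1, PRIM1, POLE, RRM1 and CDK2), compared with 14.8% of all genes. They were below the controls for 0 of the 47, compared with 25.2% of all genes. Leaving out control replicate 1 instead gave a median of -0.25, and the EFTUD2 libraries were then below the controls for 5 of the 47 (10.6%; TYMS, CHAF1B, UHRF1, CCND1 and CCNE1), compared with 26.6% of all genes. The direction of the set thus depended on which library was included.

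Library scaling moved the balance too. With the deposited values 17.0% of the 47 genes and 37.3% of all genes had a log2 fold change above 0. Under median-of-ratios scaling, 46.8% of the 47 and 50.3% of all genes did, and the median log2 fold change of the 47 was -0.01, beside 0.00 for all genes.

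**Figure D4:**
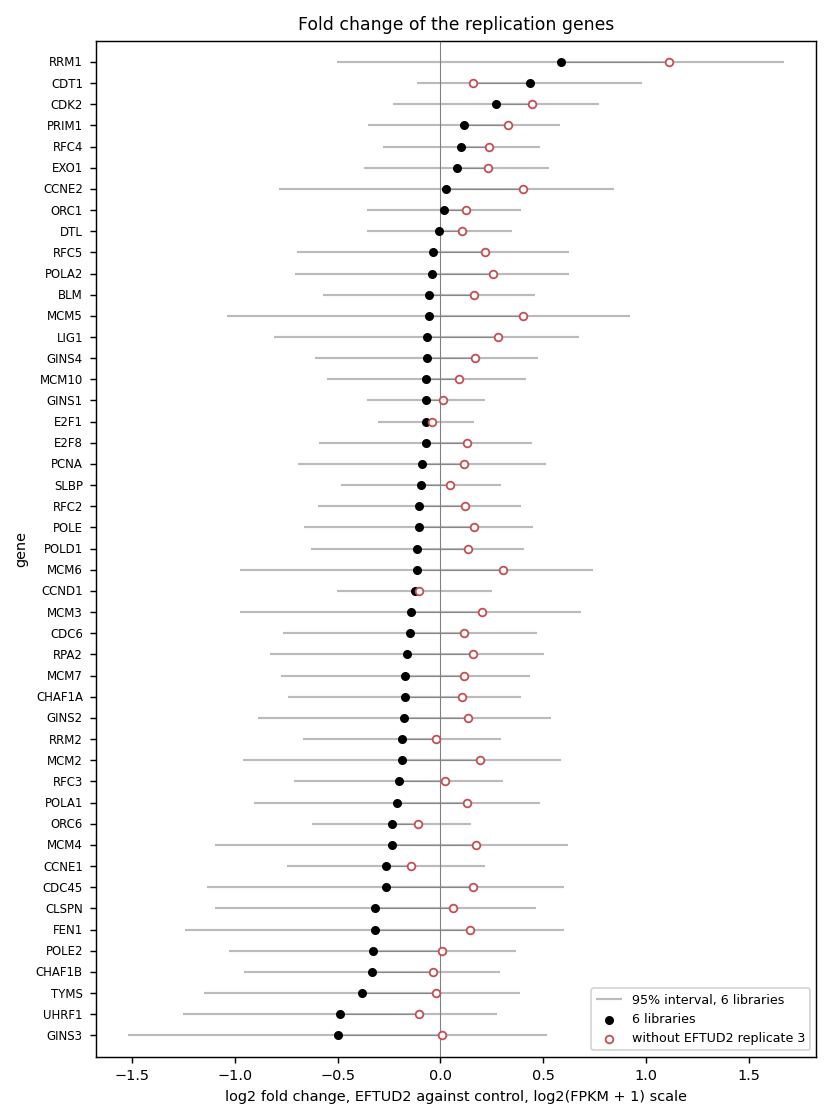
Log2 fold change of EFTUD2 against control on the log2(FPKM + 1) scale (horizontal axis) for the 47 genes (vertical axis, in order of value). Black points and grey bars are the estimate and 95% interval from 6 libraries, and open red points are the estimate without EFTUD2 replicate 3. Every grey bar crosses 0, and the open points lie mostly to the right of 0, with RRM1 at 1.11.

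The levels of the 47 genes ran opposite to those of the hepatocyte markers at both ends. EFTUD2 replicate 3, with the lowest median of the 47 genes, had the highest sum of the 10 hepatocyte markers, 14115 FPKM or 3.25% of all FPKM in the library. Control replicate 1, with the next lowest median, had the next highest sum, 10646 FPKM. Control replicate 2, with the highest median, had the lowest sum, 6933 FPKM or 1.66% of all FPKM. The other 3 libraries had sums between 9190 and 9291 FPKM. The 47 genes themselves made up 0.192% of all FPKM in EFTUD2 replicate 3 and between 0.252% and 0.362% in the other libraries. Not every marker shared this order: 5 of the 10 were highest in EFTUD2 replicate 3, among them ALB, and 2 were lowest there, HNF4A at 47.3 FPKM and FOXA2 at 17.9 FPKM. The part of hepatocyte gene expression in the level of the replication genes was not tested.

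**Figure D5:**
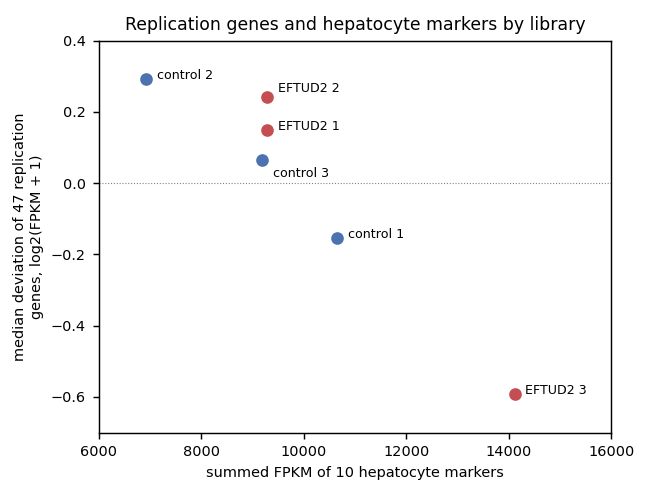
Median difference of the 47 genes from their own means (vertical axis, log2(FPKM + 1) scale) against the summed FPKM of 10 hepatocyte markers (horizontal axis, which does not start at 0), 1 point per library, control in blue and EFTUD2 in red. EFTUD2 replicate 3 is at 14115 FPKM and -0.59, and control 2 at 6933 FPKM and 0.29.

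Other genes of the same pathway were compared as fixed lists, chosen by function with earlier results of these data known. Of 46 other replication genes, 0 were called at an adjusted p under 0.05 in limma. At an unadjusted p under 0.05, 2 of the 46 were higher and 1 lower, compared with 4.4% and 7.9% of all genes. The median log2 fold change of the 46 was -0.12. EFTUD2 replicate 3 was lowest for 35 of them (76.1%), compared with 45.7% of all genes (27 under median-of-ratios scaling and 24 after quantile normalization). Groups did not overlap for 7 of the 46, 3 higher and 4 lower, compared with 7.92% and 19.4% of all genes. TIPIN, which protects stalled forks, was at 8.02 ± 1.19 FPKM in control and 5.18 ± 2.40 FPKM in EFTUD2 cells, ORC4, of the origin complex, at 13.6 ± 0.68 and 9.36 ± 2.06 FPKM, and DCTPP1, which degrades unwanted nucleotides, at 80.8 ± 9.73 and 61.3 ± 11.8 FPKM (SD, n = 3 each). TOP2A, the topoisomerase that untangles sister chromatids, was at 76.1 ± 5.57 and 96.4 ± 12.5 FPKM, CHTF18, of an alternative clamp loader, at 7.76 ± 0.38 and 9.83 ± 0.63 FPKM, and RPA3, of the single-stranded DNA binding complex, at 11.3 ± 2.08 and 13.4 ± 0.11 FPKM (SD, n = 3 each). TOP1, a topoisomerase, was the seventh, at 65.1 ± 5.50 and 55.9 ± 1.41 FPKM (SD, n = 3 each). The adjusted p of these 7 genes in limma lay between 0.40 and 0.46.

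Of 31 regulators of the G1/S transition, 0 were called at an adjusted p under 0.05 in limma. At an unadjusted p under 0.05, 1 of the 31 was higher and 2 lower, compared with 4.4% and 7.9% of all genes. The median log2 fold change of the 31 was -0.07. EFTUD2 replicate 3 was lowest for 17 (54.8%), compared with 45.7% of all genes (15 and 11 under the same scalings). Groups did not overlap for 6 of the 31, 2 higher and 4 lower, compared with 7.92% and 19.4% of all genes. CDKN2B, an inhibitor of the cyclin D kinases, measured 2.95, 4.0 and 4.12 FPKM in controls 1 to 3 against 1.97, 2.68 and 0.70 FPKM in EFTUD2 cells. CDKN1C, an inhibitor of cyclin E with CDK2, lay between 0.01 and 0.02 FPKM in the controls, whereas EFTUD2 replicates 1 to 3 had 0.31, 0.74 and 0.22 FPKM. Neither pair of groups overlapped, and both genes had an adjusted p of 0.40 in limma. RBL1, E2F6 and E2F5, which repress or tune E2F targets, had log2 fold changes of -0.50, -0.44 and -0.26, and MYC one of 0.06, again with groups that did not overlap. CDKN1A, the p21 inhibitor of CDK2, measured 97.7, 80.7 and 69.9 FPKM in controls 1 to 3 against 62.8, 68.7 and 190.6 FPKM in EFTUD2 cells (chosen after its values were seen). CDKN1A was thus highest, like CDT1, in the library in which most of the 47 genes were lowest.

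Genes of the next phase of the cycle were set beside the 47 genes in the same way. Of 36 genes of G2 and mitosis, 11 (30.6%) were lowest in EFTUD2 replicate 3 and 11 highest, compared with 45.7% and 20.5% of all genes. Under median-of-ratios scaling 5 were lowest and 15 highest there, and after quantile normalization 6 and 17. Their median ratio of EFTUD2 replicate 3 to the mean of replicates 1 and 2 was 0.875, beside 0.546 for the 47 genes and 0.857 for all genes. Their median log2 fold change was 0.08, beside -0.07 for all genes. It lay above 0 for 28 of the 36 (77.8%), compared with 37.3% of all genes. None of the 36 passed an adjusted p under 0.05 in limma. At an unadjusted p under 0.05, 3 were higher and 0 lower, compared with 4.4% and 7.9% of all genes. Groups did not overlap for 9 of the 36, 8 higher and 1 lower, compared with 7.92% and 19.4% of all genes. These counts depended on the scaling. Under median-of-ratios scaling 13 of the 36 were higher and 0 lower at an unadjusted p under 0.05 in limma. Of the 17222 genes tested, 1124 and 846 were. Groups then did not overlap for 15 higher and 0 lower, compared with 2053 and 2084 of all genes. At an adjusted p under 0.05, 0 of the 36 were called there too. CDK1, the mitotic kinase, measured 27.7, 35.96 and 28.6 FPKM in controls 1 to 3 against 37.3, 38.9 and 41.8 FPKM in EFTUD2 cells. PTTG1, securin, measured 47.7, 62.1 and 57.2 FPKM against 65.5, 66.4 and 95.3 FPKM. For both genes all EFTUD2 libraries were above all controls and replicate 3 was the highest. CENPA, the centromere histone, the mitotic kinesins KIF20A and KIF2C, and the kinase AURKB had log2 fold changes between 0.30 and 0.35 and groups that did not overlap, with adjusted p between 0.40 and 0.41 in limma. The difference between the mitotic list and the 47 genes was not tested.

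The genes with an E2F motif and those without one were also set side by side in EFTUD2 replicate 3. The ratio to the mean of EFTUD2 replicates 1 and 2 had a median of 0.496 over the 22 genes with a motif and of 0.610 over the 17 genes without. The ranges overlapped, from 0.269 (GINS3) to 1.80 (CDT1) with a motif and from 0.314 to 0.774 without. E2F1 carried 2 motifs in the stretch printed above and had a ratio of 0.942.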

How the data were processed

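RNA from 3 control and 3 EFTUD2-overexpressing Hep G2 libraries was extracted with TRIzol and sequenced by the authors. They deposited 1 table of FPKM values per gene and library. The submitters' processing notes name HISAT2, Bowtie2, RSEM, DESeq2 and build hg38. Their parameters and the annotation are not given in the sources used here. Samples were grouped from the titles. Depth is unknown, so no counting interval is given. The 17222 of 23524 genes whose mean reached 0.1 FPKM were transformed as log2(FPKM + 1), a scale that understates changes of low genes, and compared with limma 3.58.1 (lmFit, eBayes with trend) in R 4.3.3, with Benjamini-Hochberg adjustment at 0.05. The same fit was also run on simulated data, with results not given here. An exact permutation test (two-sided) over the 6 libraries was run for single genes. Summaries used Python 3.11.15, pandas 2.3.3, scipy 1.17.1 and matplotlib 3.10.9. Promoters came from RefSeq (GRCh38.p14) and only letters were matched.

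The 47 genes and the other lists were chosen with earlier results of these data known. Values per library are given for the 12 genes with the largest log2 fold change in size, genes whose groups do not overlap, and PCNA, MCM2 to MCM7, CCND1, CCNE1, CCNE2, CDK2 and E2F1. Of each further list, up to 6 genes whose groups do not overlap are named by size of change. CDC6, PRIM1, RRM2, E2F8, TOP1 and CDKN1A were added after their values were seen. Alternatives were another pseudocount (0.1 FPKM), filtering at 1 FPKM or not at all, median-of-ratios scaling, quantile normalization, array weights, robust empirical Bayes, a replicate block and each library left out.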

Additional observations from a re-analysis of the deposited data

How the results depend on the processing

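Over 14 alternative settings, 280 of 322 log2 fold changes of 23 named genes kept their direction and side of the threshold, and 39 turned direction. With array weights, whose estimation stopped before converging, 1246 genes were called in all and 1 of the 47 (RRM1, log2 fold change 1.196, adjusted p = 0.039 in limma), 3 of the 47 were higher at an unadjusted p under 0.05, and the log2 fold changes of FEN1 (0.13), CLSPN (0.0497), CDC45 (0.0795), PCNA (0.0087), MCM2 (0.0401), MCM4 (0.0622), MCM5 (0.13), MCM6 (0.28), MCM7 (0.0545) and E2F1 (0.0121) turned. Median-of-ratios scaling turned PCNA (0.028), MCM5 (0.0556) and E2F1 (0.0439), quantile normalization MCM5 (0.0592), MCM6 (0.0378) and E2F1 (0.0409), and a pseudocount of 0.1 turned CCNE2 (-0.037). The cause was not tested. With each library left out in turn, 0 to 167 genes were called in all (167 without EFTUD2 replicate 3) and 0 of the 47. At an unadjusted p under 0.05, 0 to 3 of the 47 were higher (3 without EFTUD2 replicate 3, compared with 7.94% of all genes). Over these fits, 1 to 8 lay wholly above the controls (8 without EFTUD2 replicate 3, compared with 14.8% of all genes). Wholly below them lay 0 to 5 (5 without control replicate 1, compared with 26.6% of all genes). The log2 fold change then ranged from -0.78 to 0.0082 for GINS3, -0.50 to 0.0067 for POLE2, -0.61 to 0.14 for FEN1, -0.52 to 0.0607 for CLSPN, -0.48 to 0.16 for CDC45, -0.30 to 0.12 for PCNA, -0.40 to 0.19 for MCM2, -0.41 to 0.20 for MCM3, -0.47 to 0.17 for MCM4, -0.32 to 0.40 for MCM5, -0.38 to 0.31 for MCM6, -0.33 to 0.12 for MCM7, -0.28 to 0.0155 for CCND1 and -0.28 to 0.40 for CCNE2. Same-numbered libraries deviated with correlations of -0.30, 0.35 and -0.09. With 3 libraries per group, these values cannot show whether the numbers pair the samples. With the replicate block 0 of the 47 genes were called, and it changed no other call. The unknown depth leaves the precision of low values unknown.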
